A study of Mus musculus with 72 samples.

Results

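The globin genes of mouse whole blood were measured on Affymetrix arrays after red-cell globin messenger RNA had been depleted from the samples. A gene was taken when a probe set, the group of short probes that reports 1 transcript, was annotated to exactly 1 symbol beginning with Hba- or Hbb-, and each gene was represented by its probe set with the highest mean over all 72 arrays. This gave 6 genes of 18193 with such a probe set: the alpha-type genes Hba-a1, Hba-a2 and Hba-x and the beta-type genes Hbb-b2, Hbb-bh1 and Hbb-y. They were covered by 11 probe sets in all. Ahsp, the chaperone of free alpha globin, was not analysed here. Of the 6 genes, 5 passed the filter on dim signals (a log2 signal over 4.14, the overall median, on 7 or more arrays) and were tested among 12588 genes, and Hba-a1 did not pass.

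All animals were female Balb/c mice, and all blood was peripheral blood drawn by submandibular bleed. The labels give an age of 9 weeks for the samples of both collections, although the recovery samples were drawn 2 weeks later. Age thus cannot be told apart from collection. Control mice drank water without lead (Pb), low-dose mice 5 µg/mL and high-dose mice 50 µg/mL of Pb given as lead acetate trihydrate for 2 weeks, and blood was drawn at the end of the exposure from 7 control, 15 low-dose and 15 high-dose mice. All groups then drank Pb-free water for 2 weeks of recovery, after which 7 control, 15 low-dose and 13 high-dose samples were taken. The exposed mice were bled at both collections, while the 7 control mice bled first were only part of the control group, and the labels do not say which controls were bled at recovery. Every sample was depleted with GLOBINclear, whose capture probes pull out globin messenger RNA, so the values describe what was left of these transcripts and not their level in blood. RNA that had not been depleted was not analysed here, so the share removed has no value.

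Haemoglobin joins 2 alpha-type and 2 beta-type globin chains, each carrying heme. The alpha-type genes lie in 1 cluster on mouse chromosome 11 and the beta-type genes in another on chromosome 7, and each cluster holds embryonic genes, used by the yolk-sac erythroid cells, and adult genes, used by the definitive erythroid cells of fetal liver and bone marrow. Hba-x codes for the embryonic zeta chain, Hbb-y and Hbb-bh1 for embryonic beta-type chains, Hba-a1 and Hba-a2 for the adult alpha chain, and Hbb-b2 for the adult beta-minor chain. In adult blood the remaining messenger RNA of the red lineage sits mainly in reticulocytes, the young red cells that have lost their nucleus but still translate globin. The factors GATA1 and KLF1 drive the adult genes, and BCL11A and ZBTB7A silence embryonic and fetal ones. Globin promoters typically carry a TATA-type box, a CCAAT box and a CACCC box, the last bound by KLF1 at adult beta-globin genes.

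The 120 bases before the start site are printed for the 4 genes that the RefSeq promoter table of GRCm38.p6 lists, because they show how nearly alike the adult alpha copies are and how the embryonic genes differ from them. Capitals mark 5 motifs searched on both strands: the CACCC letters, the CCAAT letters, the TATAA and the ATAAAA forms of a TATA-type box, and the GATAA letters, and each line reads 5′ to 3′ on the gene's own strand.
Hbb-y, chr7:103853208-103853327, minus strand: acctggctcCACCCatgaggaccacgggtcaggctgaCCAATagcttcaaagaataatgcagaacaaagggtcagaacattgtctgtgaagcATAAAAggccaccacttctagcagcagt
Hba-x, chr11:32276480-32276599, plus strand: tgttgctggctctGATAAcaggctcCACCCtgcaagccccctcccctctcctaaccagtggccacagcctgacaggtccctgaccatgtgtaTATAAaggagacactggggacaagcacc
Hba-a1, chr11:32283552-32283671, plus strand: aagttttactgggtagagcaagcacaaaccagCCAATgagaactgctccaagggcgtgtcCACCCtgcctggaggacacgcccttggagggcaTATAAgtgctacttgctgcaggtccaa
Hba-a2, chr11:32296372-32296491, plus strand: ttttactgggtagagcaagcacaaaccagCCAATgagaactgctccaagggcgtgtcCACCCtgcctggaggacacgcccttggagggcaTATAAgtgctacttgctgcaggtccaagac
Hba-a1 and Hba-a2 shared an unbroken run of 117 of 120 bases. The longest run that Hbb-y shared with another of the 4 was 10 bases. All 4 promoters held CACCC. The CCAAT letters were found in Hbb-y, Hba-a1 and Hba-a2, TATAA in the 3 alpha-type genes, ATAAAA in Hbb-y alone and GATAA in Hba-x alone. Among 32851 listed promoters, windows of the same length held CACCC in 31.7%, CCAAT in 21.3%, TATAA in 11.8%, ATAAAA in 8.3% and GATAA in 10.5%. A match describes letters in this window and not a site in use.

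Values are log2 signals normalized by robust multi-array averaging (RMA), differences are on the log2 scale ± SE, and single groups are given as mean ± SD. The deposited values ran from 0.41 to 14.1, and array medians lay between 4.05 and 4.22. Pairs of arrays correlated between 0.958 and 0.995 across probe sets, and 0 pairs were identical. Counts of reads do not apply to arrays, so the number of arrays sets the precision. P-values treat the arrays of both collections as independent samples and measure the spread between them. Over all tested genes the median difference lay between -0.03 and 0.01 in each of the 11 comparisons.

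The adult globin transcripts still gave strong signals after depletion. A further 4 probe sets were annotated to more than 1 adult globin gene, 3 to Hba-a1 and Hba-a2 together and 1 to the adult beta genes Hbb-b1, Hbb-b2, Hbb-bs and Hbb-bt, and fell outside the rule for members. Their means lay between 13.3 and 13.9, close to the highest deposited value of 14.1, and their lowest value on any array was 12.9. Their SD over 72 arrays was only 0.04 to 0.11. In the 11 comparisons 0 of the 4 were called (limma over all probe sets other than controls, with no filter), their differences lay between -0.10 and 0.05, and the smallest unadjusted p was 0.09. Values this near the top of the scale leave little room for a difference to show, so this does not say that the groups were alike. Balb/c mice carry Hbb-b1 and Hbb-b2 as their adult beta genes, whereas the reference strain C57BL/6 carries Hbb-bs and Hbb-bt.

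Hbb-y had signal above 4.14 in 72 of 72 arrays. Its values after exposure ran from 5.93 over a median of 6.42 to 6.93 in controls, from 5.66 over 6.28 to 6.53 at the low dose, and from 6.15 over 6.60 to 7.15 at the high dose. After recovery they ran from 5.16 over 5.94 to 6.29 in controls, from 5.01 over 5.67 to 6.29 at the low dose, and from 5.55 over 6.07 to 6.66 at the high dose. The 3 groups of the first collection had the 3 highest means, with the high dose on top in each collection, and all groups overlapped. The means were 6.58 ± 0.32 (SD, n = 15), 6.39 ± 0.37 (SD, n = 7) and 6.23 ± 0.27 (SD, n = 15) at the high dose, in controls and at the low dose after exposure, and 6.11 ± 0.31 (SD, n = 13), 5.82 ± 0.38 (SD, n = 7) and 5.66 ± 0.38 (SD, n = 15) in the same order after recovery.

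Hbb-bh1, the other embryonic beta-type gene, was dim and lay above 4.14 in 18 of 72 arrays, 10 of them from the high dose after exposure. Its values after exposure ran from 3.55 over a median of 3.87 to 4.17 in controls, from 3.45 over 3.90 to 4.36 at the low dose, and from 3.79 over 4.27 to 4.95 at the high dose. After recovery they ran from 3.31 over 3.57 to 3.91 in controls, from 2.92 over 3.50 to 4.21 at the low dose, and from 2.95 over 3.50 to 4.49 at the high dose. The high-dose group after exposure stood highest, at 4.28 ± 0.31 (SD, n = 15), and the next group, the low dose after exposure, at 3.90 ± 0.27 (SD, n = 15). Over the 6 chosen probe sets this step of 0.38 was the one gap between neighbouring means that exceeded the larger SD of the pair. On the Hbb-bh1 probe set of mean 3.75 controls after exposure stood highest, at 4.05, and the high dose after exposure at 3.99. On the one of mean 2.64 the high dose after exposure was highest, at 2.89 beside 2.80 in controls.

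Hba-x, the embryonic alpha-type gene, lay above 4.14 in 32 of 72 arrays, and 12 of these were high-dose arrays after exposure. Its group means ran from 3.95 ± 0.21 (SD, n = 7) in controls after recovery to 4.24 ± 0.21 (SD, n = 15) at the high dose after exposure. The high dose after recovery had the widest range, from 3.49 over a median of 4.12 to 4.92. The 6 group means spanned 0.30 beside a within-group SD of 0.23, the second-narrowest span of the 6 genes on this scale after Hba-a1.

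The adult alpha genes have 1 probe set each that names only 1 of them, and both were dim. Hba-a2 lay above 4.14 in 17 of 72 arrays, all of them from the first collection. Its values after exposure ran from 3.70 over a median of 4.12 to 4.53 in controls, from 3.24 over 3.83 to 4.66 at the low dose, and from 3.72 over 4.28 to 4.66 at the high dose. After recovery they ran from 3.49 over 3.69 to 3.86 in controls, from 3.12 over 3.53 to 3.85 at the low dose, and from 3.10 over 3.69 to 4.06 at the high dose. The collections thus separated more than the doses, with overlap in every dose group. Hba-a1 lay above 4.14 in 0 of 72 arrays, with group means between 2.30 and 2.46 and a largest value of 2.91, so it has no test among all genes.

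Hbb-b2 was the adult beta gene with a probe set of its own, and it lay above 4.14 in 72 of 72 arrays. Its values after exposure ran from 9.30 over a median of 9.65 to 10.2 in controls, from 8.33 over 9.54 to 10.1 at the low dose, and from 9.04 over 9.74 to 10.7 at the high dose. After recovery they ran from 8.95 over 9.55 to 10.3 in controls, from 8.10 over 9.26 to 10.2 at the low dose, and from 8.59 over 9.65 to 10.1 at the high dose. Its 6 group means lay within 0.52 of each other, while the arrays of every group ranged more widely than that. The second Hbb-b2 probe set had a mean of 4.78 and a span of group means of 0.23.

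**Figure D1:**
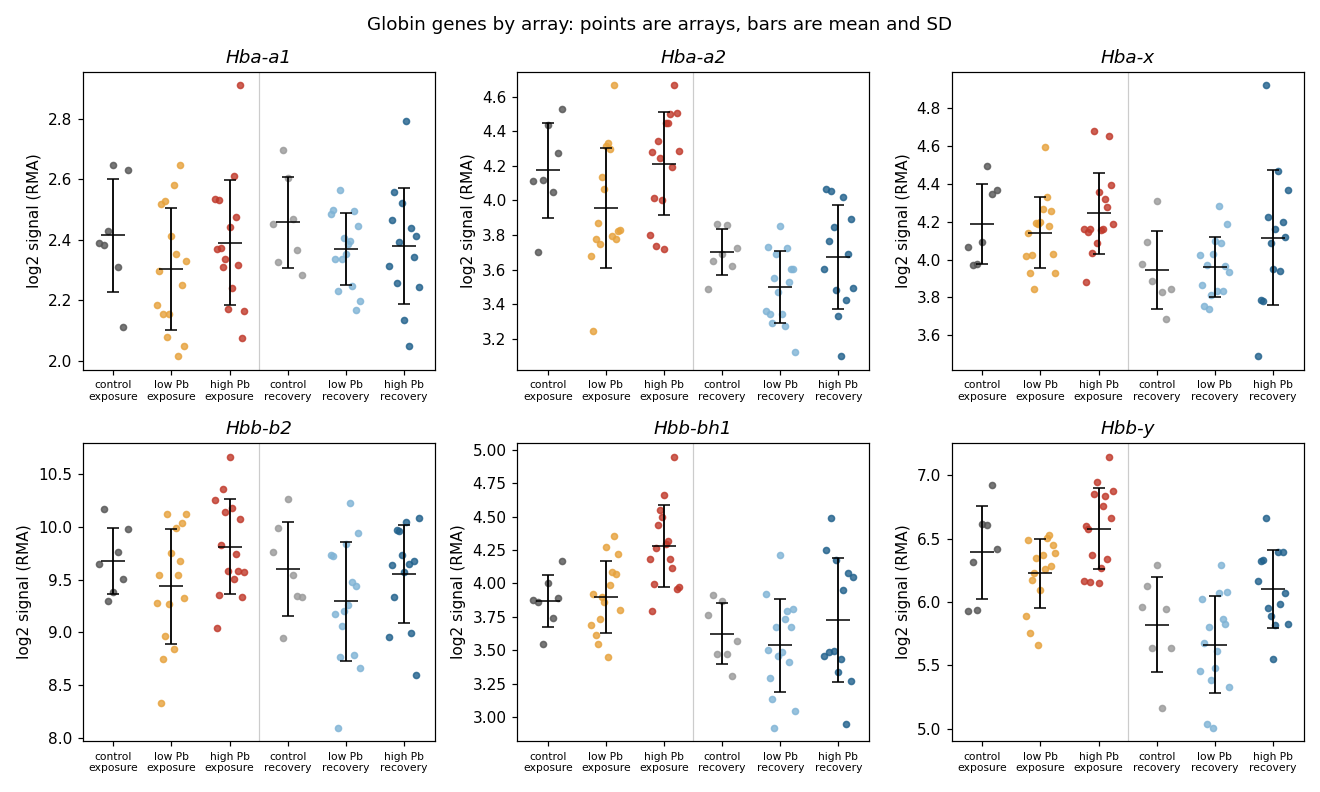
Log2 RMA signal of the 6 globin genes (1 panel each, with its own vertical scale) on every array, by group; points are arrays and black bars are group mean and SD. The means of all 5 tested genes are lower in each recovery group than in the exposure group of the same dose, though not all were called. The Hbb-bh1 probe set shown stands highest at the high dose after exposure (4.28), and Hba-a1 stays between 2.02 and 2.91 throughout.

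Between the collections Hbb-y fell in all 3 dose groups. It lay above the filter on every array of both collections. Hbb-y fell by 0.57 ± 0.17 in controls (1.49-fold lower, adjusted p = 0.00641), by 0.57 ± 0.12 at the low dose (adjusted p = 5.41e-05) and by 0.47 ± 0.12 at the high dose (adjusted p = 0.00081). In number of arrays, 3 of 7 control, 7 of 15 low-dose and 7 of 13 high-dose recovery arrays lay below every exposure array of their dose group for Hbb-y.

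Hba-a2 and Hbb-bh1 entered the test through the collection in which they were high: 17 exposure and 0 recovery arrays of Hba-a2, and 14 exposure and 4 recovery arrays of Hbb-bh1, lay above 4.14, where the filter asked for 7. Their differences are therefore given with adjusted p-values from the limma fit over all probe sets other than controls, which applied no filter. Hba-a2 fell there by 0.48 in controls (adjusted p = 0.0102), by 0.46 at the low dose (adjusted p = 0.000135) and by 0.54 at the high dose (adjusted p = 1.47e-05). These values come from its dim probe set, of mean 3.86. The 3 bright probe sets shared by Hba-a1 and Hba-a2, near the top of the scale, were not called in that fit. They differed by 0.01 to 0.05 in controls, by -0.017 to -0.003 at the low dose and by -0.01 to 0.02 at the high dose. A fall of the adult alpha transcripts as a whole is thus not read from Hba-a2. Hbb-bh1 fell by 0.36 at the low dose (adjusted p = 0.0102) and by 0.55 at the high dose (1.47-fold lower, adjusted p = 0.000114). In controls, in the filtered fit, it differed by -0.25 ± 0.17, with a 95% interval from -0.58 to 0.09 (adjusted p = 0.246). Hba-x differed by -0.24, -0.18 and -0.13 and Hbb-b2 by -0.08, -0.14 and -0.26 in controls, at the low dose and at the high dose, none past the threshold in this fit.

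Much of the blood transcriptome moved between the collections. Lower at recovery by the same test (limma, Benjamini-Hochberg over 12588 genes, adjusted p under 0.05) were 2 of 5 globin genes in controls beside 13.6% of all tested genes, 3 of 5 at the low dose beside 17.9%, and 3 of 5 at the high dose beside 19.8%. These counts hold Hba-a2 in all 3 groups and Hbb-bh1 in both Pb groups, which the filter let in through their exposure arrays, so nothing is read from them. Called in either direction were 36.1%, 44.1% and 49.2% of all genes. Dim genes shifted a little in the same direction: the 2012 tested genes with a mean between 3 and 4.5, the band of Hba-a2, Hba-x and Hbb-bh1, had medians of -0.12, -0.07 and -0.09. Each array's mean over those genes was then used as a covariate in limma, a step added after the data had been seen. Hba-a2 stood at -0.41 in controls, but this fit was filtered, so no pass is read for it. Hbb-y did not pass in controls (-0.35, adjusted p = 0.0889), and at the low dose Hbb-bh1 did not (-0.19, adjusted p = 0.132). The 18S ribosomal RNA mean of each array, lower at recovery (group means of 6.33 to 6.43 beside 7.00 to 7.79), ended that low-dose call of Hbb-bh1 too (-0.28, adjusted p = 0.0525).

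High-dose mice were set against low-dose mice, a contrast that leaves out the controls. After exposure the control mean lay between the low-dose and high-dose means for Hbb-y, Hba-a2, Hba-x and Hbb-b2, and below both for Hbb-bh1. After exposure Hbb-bh1 was higher at the high dose by 0.38 ± 0.11 (1.30-fold, adjusted p = 0.0162), and 5 of 15 high-dose arrays exceeded the highest low-dose one. For Hbb-bh1 10 high-dose and 3 low-dose arrays after exposure lay above the filter. The limma fit over all probe sets without a filter gave an adjusted p of 0.0281 for it. Hbb-y was higher by 0.35 ± 0.12 (1.28-fold, adjusted p = 0.0262), and 9 of 15 high-dose arrays exceeded the highest low-dose one. Hba-a2 differed by 0.26 ± 0.10 (adjusted p = 0.0577), Hbb-b2 by 0.38 ± 0.17 (adjusted p = 0.102) and Hba-x by 0.10 ± 0.08 (adjusted p = 0.384). The count was 2 of 5 higher, where 6.04% of all tested genes were called higher and 18.7% in either direction, and the median of the 5 genes was 0.35 beside -0.03 over all genes.

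The call of Hbb-y in this contrast lay near the threshold and was lost when certain single arrays were left out. Without low-dose replicate 3, low-dose replicate 7 or high-dose replicate 13 the difference was 0.32 (adjusted p = 0.0567), 0.31 (adjusted p = 0.0528) or 0.31 (adjusted p = 0.0594) by limma. The hybridisation controls, bacterial transcripts added to every sample in fixed amounts, averaged 10.5 ± 0.40 on the high-dose arrays after exposure and 10.1 ± 0.35 on the low-dose ones. The 18S ribosomal RNA probe sets averaged 7.79 ± 0.99 and 7.00 ± 0.86. With the hybridisation mean as a covariate 0 of 5 genes passed (Hbb-bh1 0.29, adjusted p = 0.148; Hbb-y 0.25, adjusted p = 0.229), and with the 18S mean only Hbb-y did (0.41, adjusted p = 0.032; Hbb-bh1 0.27, adjusted p = 0.15).

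After exposure no globin gene passed the threshold against controls at either dose, which does not show that the groups were alike. At the high dose after exposure all 5 genes lay above controls, with Hbb-bh1 furthest at 0.41 ± 0.14 and a 95% interval from 0.12 to 0.70 (unadjusted p = 0.00581, adjusted p = 0.343). For Hbb-bh1 10 of 15 high-dose arrays exceeded the highest control one, while its other probe sets differed by -0.06 and 0.09. Hbb-y differed by 0.19, Hbb-b2 by 0.14, Hba-x by 0.06 and Hba-a2 by 0.04. By limma 0 of 5 passed, 1 had an unadjusted p under 0.05, and 0.0238% of all genes passed, so few calls of any kind were made here. At the low dose after exposure 4 of 5 lay below controls, from -0.24 for Hbb-b2 to -0.05 for Hba-x, with 0 of 5 past the threshold, 0 at an unadjusted p under 0.05 and 1.3% of all genes called.

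After recovery no globin gene passed in any dose contrast. The high dose differed from controls by 0.28 for Hbb-y (95% interval from -0.01 to 0.58, adjusted p = 0.477), and 0 of 5 genes were called beside 0.429% of all genes, with 0 at an unadjusted p under 0.05. The low dose differed by -0.31 for Hbb-b2 and -0.20 for Hba-a2, with 0 of 5 called, 0 at an unadjusted p under 0.05 and 0% of all genes called (295 at an unadjusted p under 0.05). High against low dose after recovery left Hbb-y at 0.44 ± 0.12 (1.36-fold, unadjusted p = 0.000468, adjusted p = 0.171), a larger difference than the one called after exposure, but 0% of all genes passed in this contrast by limma (1765 at an unadjusted p under 0.05) and 1 of 5 globin genes had an unadjusted p under 0.05. All 5 genes lay above the low dose there too, from 0.15 for Hba-x to 0.44 for Hbb-y.

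Whether a dose effect changed between the collections was tested directly. For the high dose the difference of differences was -0.31 for Hbb-bh1, with a 95% interval from -0.72 to 0.10, and 0.10 for Hbb-y, from -0.32 to 0.51. For the low dose Hbb-y gave 0.01, from -0.41 to 0.42. For both doses 0 of 5 genes passed and 0 had an unadjusted p under 0.05, where 0.00794% and 0.0238% of all genes passed. The fall of Hbb-bh1 was therefore not shown to differ between high-dose mice and controls. The comparisons share groups, so the values of 1 group enter several of them.

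**Figure D2:**
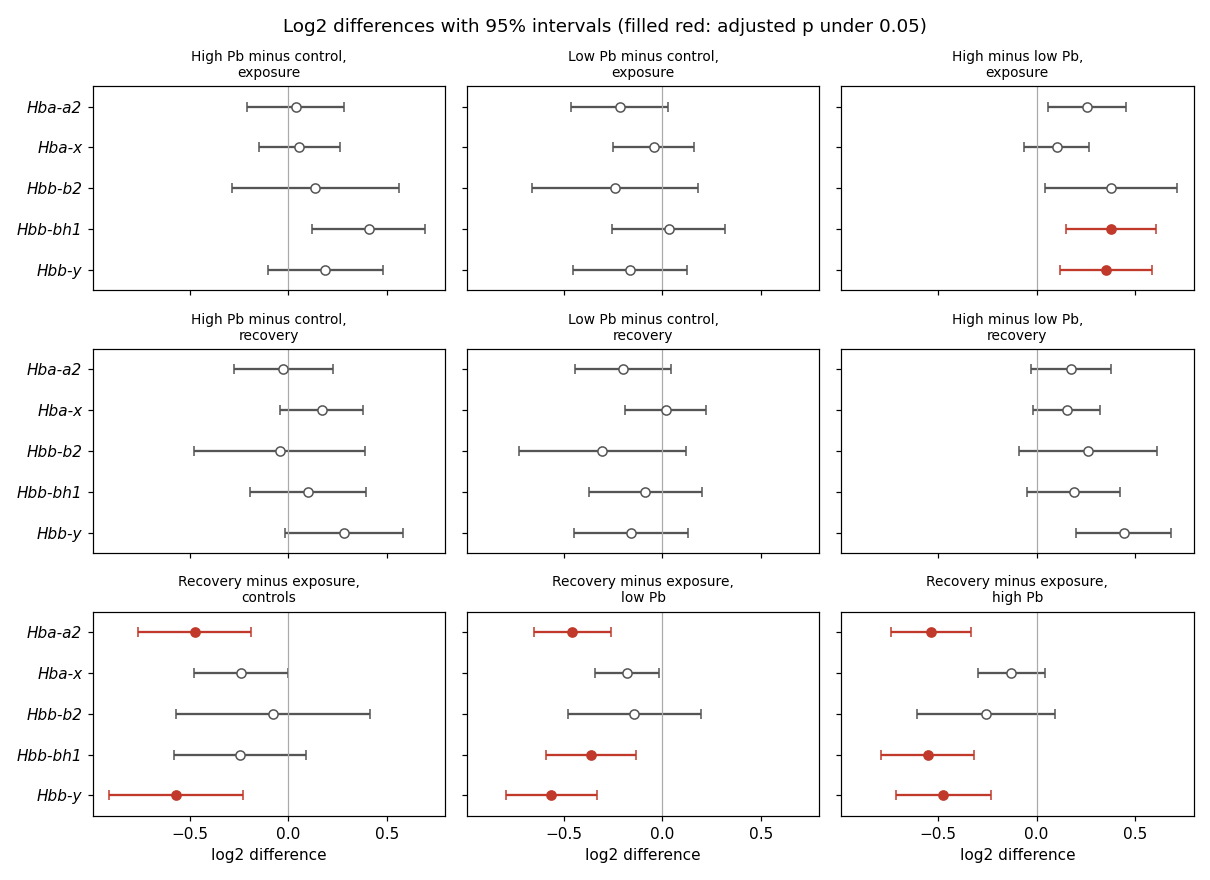
Log2 difference and 95% interval of the 5 tested globin genes in 9 comparisons, 1 panel each; filled red points had an adjusted p under 0.05 and open grey points did not. The calls lie in the recovery against exposure row and in high against low dose after exposure, where Hbb-bh1 stands at 0.38 and Hbb-y at 0.35. Hba-a2 and Hbb-bh1 entered the recovery against exposure tests through their exposure arrays.

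The several probe sets of a gene allowed a check within genes. The other Hbb-y probe sets, of mean 6.03 and 5.10, moved with the first: they fell by 0.55 and 0.52 in controls, by 0.55 and 0.58 at the low dose and by 0.45 and 0.50 at the high dose, all called in a limma fit over all single probe sets, without the filter. For high against low dose after exposure they gave 0.34 (adjusted p = 0.0678) and 0.24 (adjusted p = 0.118) beside 0.35 for the first (adjusted p = 0.0436 in that fit). The other Hbb-bh1 probe sets, of mean 3.75 and 2.64, gave -0.41 (called) and -0.32 (not called) in controls, fell by 0.44 and 0.40 at the low dose and by 0.33 and 0.34 at the high dose, and for high against low dose after exposure gave 0.13 and 0.15 beside the 0.38 of the first, with neither called. The second probe set of Hbb-b2 gave 0.02 there beside 0.38. The calls of Hbb-bh1 and Hbb-y for dose were thus each made by 1 of 3 probe sets, with all 3 in the same direction.

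**Figure D3:**
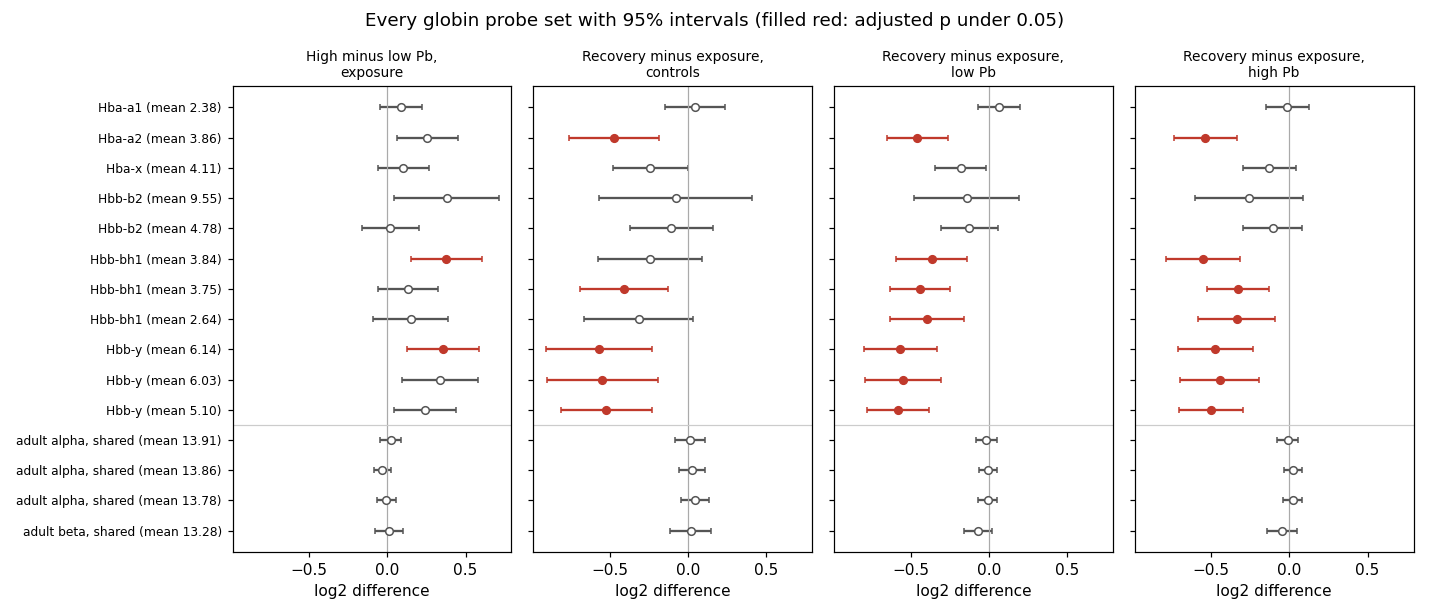
Log2 difference and 95% interval of the 11 globin probe sets of 1 gene (above the line) and the 4 probe sets shared by adult globin genes (below it), labelled with their mean log2 signal; filled red points had an adjusted p under 0.05 over all probe sets, without a filter. All 3 Hbb-y probe sets fell at recovery in each dose group, and the 4 shared probe sets stayed within 0.07 of 0 in these comparisons.

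Across mice, Hbb-y followed other genes of the red lineage. A list of reticulocyte and erythroid genes (membrane, transporter, iron, carbonic anhydrase and transcription factor genes, with no globin gene among them) was averaged over its 38 tested members, and the deviation of each array from its group mean was compared within a collection, so that each mouse entered once. Hbb-y correlated with the list mean at r = 0.795 over the 37 arrays after exposure (Spearman rho 0.851) and at r = 0.821 over the 35 arrays after recovery (rho 0.826). The permutation p was 1e-05 for each, the smallest that 100000 resamples can give (adjusted 6e-05 over 12 relations). Without the 2 arrays farthest from the median of the list mean, r was 0.806 and 0.779, and within single dose groups it lay between 0.715 and 0.91. The other Hbb-y probe sets gave 0.774 and 0.619 after exposure and 0.806 and 0.625 after recovery.

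The other globin genes gave lower correlations with the list. Hba-a2 correlated with it at r = 0.454 after recovery (rho 0.406, permutation p = 0.00739, adjusted 0.0296), at 0.366 without the 2 farthest arrays and at 0.257 after quantile normalization, and at 0.22 after exposure (adjusted permutation p = 0.321). Hba-x reached 0.359 and 0.191, Hbb-bh1 0.209 and 0.383, Hbb-b2 -0.071 and 0.293, and Hba-a1 0.093 and -0.101 after exposure and after recovery, none with an adjusted permutation p under 0.05 for r, although the rank correlation of Hba-x after exposure passed (rho 0.436, adjusted permutation p = 0.0383). The other Hbb-bh1 probe sets, of mean 3.75 and 2.64, gave 0.451 and 0.468 after exposure (adjusted permutation p = 0.017 each, over 50 relations). After recovery they gave 0.521 and 0.36 (adjusted permutation p = 0.0097 and 0.092). The second Hbb-b2 probe set gave 0.097 and 0.387, neither past the threshold. Differences between these correlations were not tested.

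The Hbb-b2 probe set of highest mean followed the shared adult globin probe sets, a comparison added after the data had been seen. With the shared beta probe set it correlated at r = 0.796 (rho 0.797) after exposure and 0.808 (rho 0.747) after recovery, each with an adjusted permutation p of 0.00016 over 48 relations, and at 0.772 and 0.725 without the 2 farthest arrays. With 2 of the 3 shared alpha probe sets it correlated at 0.785 and 0.58 after exposure and at 0.714 and 0.597 after recovery, and with the remaining one at 0.037 and -0.015. Hbb-b2 was not alone in this. With the shared beta probe set Hbb-bh1 correlated at 0.571 and 0.637 (adjusted permutation p = 0.00315 and 0.000576), and Hba-x at 0.574 and 0.464 (adjusted permutation p = 0.00276 and 0.0103). Hba-a1 and Hba-a2 did not pass in either collection. For the Hbb-y probe set of highest mean the correlation with the shared beta probe set did not pass (-0.055 and 0.254, adjusted permutation p = 0.921 and 0.351). The probe sets of Hbb-y and Hbb-b2 carry the Affymetrix suffix for probes that may also match other sequences, and cross-hybridisation between globin transcripts was not tested. The second Hbb-b2 probe set gave r = -0.513 and -0.038 with the shared beta probe set (adjusted permutation p = 0.0097 and 0.931 over 50 relations). The Hbb-y probe set without that suffix passed in both collections, at 0.477 and 0.666 (adjusted permutation p = 0.017 and 0.000583). Whether Hbb-y and Hbb-b2 differ in following the shared beta probe set thus depends on the probe set used.

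**Figure D4:**
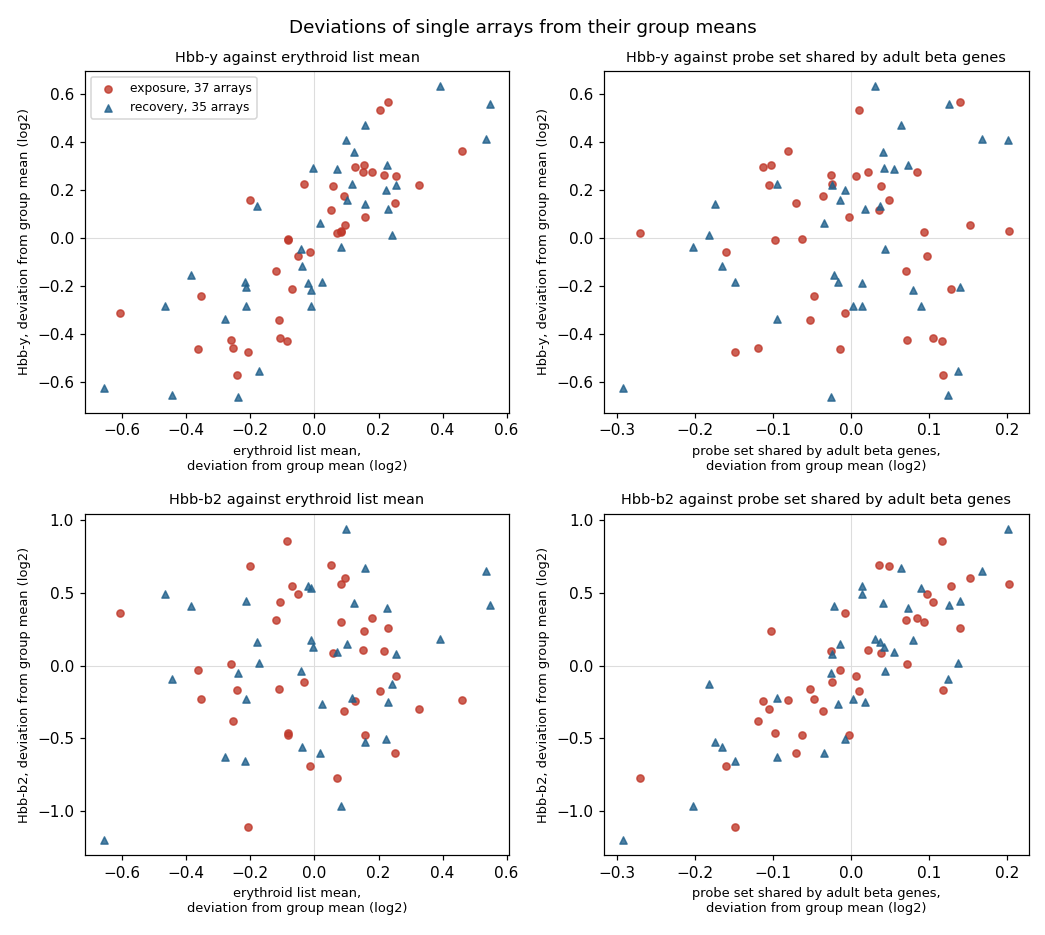
Deviation of each array from its group mean (log2) for Hbb-y (top) and Hbb-b2 (bottom) against the erythroid list mean (left) and the probe set shared by the adult beta genes (right); red circles are the 37 exposure arrays and blue triangles the 35 recovery arrays. Hbb-y lines up with the erythroid mean (r = 0.795 and 0.821) and Hbb-b2 with the shared beta probe set (r = 0.796 and 0.808). Each gene is shown by its probe set of highest mean. The Hbb-y probe set of mean 5.10, not shown, gave r = 0.477 and 0.666 with the shared beta probe set.

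Among the globin genes themselves, 30 relations were computed. Hbb-b2 and Hbb-bh1 correlated in both collections, at r = 0.627 (rho 0.623, adjusted permutation p = 0.00135) and 0.679 (rho 0.704, adjusted 0.0012). Hba-x correlated with Hbb-bh1 at 0.448 (rho 0.402, adjusted 0.0442) and 0.559 (rho 0.566, adjusted 0.00997) by permutation, the first at 0.277 without the 2 farthest arrays, so that it rests on them. Hba-x and Hbb-b2 correlated at 0.552 (rho 0.679, adjusted permutation p = 0.0037) after recovery. The embryonic pair Hbb-bh1 and Hbb-y, neighbours in the same cluster, gave 0.289 and 0.393 (adjusted permutation p = 0.169 and 0.0733).

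Measures of the arrays moved with some of these signals across mice. The mean of the dim genes correlated with Hbb-b2 at r = 0.592 after exposure and 0.754 after recovery (rho 0.611 and 0.716) and with Hbb-bh1 at 0.587 and 0.56 (rho 0.565 and 0.526), each with an adjusted permutation p under 0.05 over 48 relations. The 18S mean correlated with Hbb-b2 at 0.582 and 0.454. For Hbb-y the dim-gene mean gave 0.316 (adjusted permutation p = 0.19) and 0.58 (adjusted permutation p = 0.00576), and the 18S mean -0.201 and -0.07. What part these measures had in the correlations between globin genes was not tested.

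The tested genes most like each globin gene over all 72 arrays, after removal of the group means, are given as a description. For Hbb-y they were A930006K02Rik (r = 0.881), Cyp4b1 (0.879), Tmem256 (0.877), Tmem29 (0.876) and Kdm7a (0.873). For Hbb-b2 they were Cad, which codes for the enzyme that starts pyrimidine synthesis (0.868), Armc8 (0.856), Hif3a (0.836), Zfp420 (0.813) and Fbxw9 (0.81). Hbb-bh1 and Hba-x shared their closest gene, the lipid kinase gene Pip5k1b (0.696 and 0.594), and Hba-x was next followed by Pklr, the pyruvate kinase of liver and red cells (0.589). Hba-a2 was closest to Agbl5 (0.721) and the ribosomal protein gene Rpl27a (0.645), and the dim Hba-a1 to Wdr54 (0.458). The arrays share their normalization, and these values carry no p.

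Many genes of the red lineage fell where Hbb-y fell. Of 38 tested members of the reticulocyte and erythroid list 23 fell from exposure to recovery in controls and 1 rose, 27 fell at the low dose and 23 at the high dose, with median differences of -0.54, -0.35 and -0.35. Of all tested genes 13.6%, 17.9% and 19.8% were lower and 22.5%, 26.2% and 29.3% higher in these 3 contrasts, the shares against which the list counts that follow are to be read. Klf1, the master regulator of adult erythroid genes, fell by 0.59, 0.60 and 0.42. Epb42, a protein of the red cell membrane skeleton, fell by 1.69 ± 0.23 at the low dose (limma, adjusted p = 1e-08) and by 1.27 ± 0.24 at the high dose. Not every member moved: Alas2 and Fech, also on this list, hardly differed, with values given among the heme enzymes below. After exposure 12 of 38 were called higher in high-dose than in low-dose mice (median 0.21), beside 6.04% of all genes, among them Gata1 by 0.41 ± 0.06 and the water channel gene Aqp1 by 0.45 ± 0.10. In bulk blood fewer cells of a type and less RNA per cell cannot be told apart. The list mean, relative to its mean over all arrays, ran from -0.203 to 0.488 in controls, -0.105 to 0.388 at the low dose and -0.294 to 0.775 at the high dose after exposure, and from -0.559 to -0.0917, -0.984 to 0.209 and -0.524 to 0.491 after recovery.

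With this list mean as a covariate in limma, Hbb-y passed in none of the contrasts of the collections. It stood at -0.06 in controls (adjusted p = 0.783), -0.07 at the low dose (adjusted p = 0.617) and -0.08 at the high dose (adjusted p = 0.499). Hba-a2 did not pass in controls (-0.30, adjusted p = 0.141), nor Hbb-bh1 at the low dose (-0.17, adjusted p = 0.355). Hba-a2 stood at -0.29 at the low dose and -0.41 at the high dose, and Hbb-bh1 at -0.40 at the high dose. Both genes had entered this filtered fit through their exposure arrays, so no pass is read from these values. In high against low dose after exposure 0 of 5 passed, with Hbb-bh1 at 0.30 (adjusted p = 0.063) and Hbb-y at 0.16 (adjusted p = 0.138).

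Regulators of globin genes, a list that shares Gata1, Klf1 and others with the erythroid one, moved both ways. Of 27 tested, 11 fell and 1 rose from exposure to recovery in controls, 10 fell and 4 rose at the low dose, and 10 fell and 3 rose at the high dose, beside 13.6%, 17.9% and 19.8% of all genes lower. Gata1 fell by 0.59 in controls and 0.35 at the high dose and differed by -0.09 at the low dose (adjusted p = 0.256). Lmo2, a bridge protein of the erythroid factor complex, fell by 0.62, 0.71 and 0.50, and Sox6, which helps to silence embryonic globin genes, fell by 0.91 in controls and 0.63 at the low dose. Bcl11a, which silences embryonic and fetal globin genes and is also strongly expressed in B cells, rose by 0.28 ± 0.10 at the low dose (adjusted p = 0.0265) and by 0.36 ± 0.11 at the high dose (adjusted p = 0.00468) and differed by 0.30 in controls (adjusted p = 0.115). Zbtb7a, another silencer, differed by -0.00, 0.14 and 0.11, none past the threshold.

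Of 8 tested enzymes of heme synthesis, 1, 2 and 2 fell and 0, 0 and 1 rose from exposure to recovery in controls, at the low dose and at the high dose, where 13.6%, 17.9% and 19.8% of all genes were lower, so that the falls were near the background share. Among them was Uros, the uroporphyrinogen III synthase, which fell in each group (by 0.29, 0.14 and 0.25), and Urod, the next enzyme, which fell by 0.53 at the low dose. Alad, the enzyme that Pb inhibits directly, differed by 0.21 ± 0.11 between high and low dose after exposure (adjusted p = 0.142). Alas2, the erythroid first enzyme of the pathway, and Fech, which inserts the iron, differed by between -0.01 and 0.04 in these 4 contrasts. Both are also members of the reticulocyte and erythroid list. Of 14 tested partners in handling globin and heme, 3 fell and 4 rose in controls, 5 fell and 5 rose at the low dose, and 4 fell and 5 rose at the high dose, where 36.1%, 44.1% and 49.2% of all genes were called in either direction. The heme oxygenase gene Hmox2 rose by 0.33, 0.37 and 0.41. Eif2ak1, the kinase that couples globin translation to heme, differed by between -0.01 and 0.09 in the same contrasts, with no call.

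Other blood cell markers and RNA measures moved with the same contrasts. From exposure to recovery 8, 7 and 8 of 8 B cell markers rose in controls, at the low dose and at the high dose, and 6, 3 and 6 of 8 monocyte markers rose and 0, 1 and 0 fell, beside 22.5%, 26.2% and 29.3% of all genes higher. After exposure high-dose mice had 7 of 8 B cell and 8 of 8 monocyte markers lower, and 7 of 10 platelet markers higher, than low-dose mice, where 12.6% of all genes were lower and 6.04% higher. Platelet markers fell in 5 of 10 cases from exposure to recovery in controls, while 4 and 2 of 10 rose and 1 and 1 fell at the low and the high dose. Of 6 neutrophil markers 2, 1 and 3 rose, and of 7 T cell markers 0, 2 and 3 rose and 1 fell in each. The B cell list mean ran from -1.42 to 0.380 in controls, -0.423 to 0.473 at the low dose and -1.12 to -0.108 at the high dose after exposure, and from 0.0191 to 0.968 over the recovery arrays. The difference between 3′ and 5′ control probe sets of Gapdh and Actb, which grows as RNA is shortened, had group means of 0.455 to 0.524 after exposure and 0.745 to 0.795 after recovery. With that difference as a covariate the count of called globin genes in high against low dose after exposure was 2, equal to that without it. In the contrasts of the collections Hbb-y stood at -0.73, -0.71 and -0.58 with it (limma, adjusted p = 0.00515, 0.000339 and 0.000708). Hba-a2 and Hbb-bh1, which the filter let in through their exposure arrays, are not counted there. The group means of this measure split by collection, so that fit cannot tell RNA shortening apart from collection. No conclusion is drawn from it for those contrasts. The part of the cell markers in the globin differences was not tested.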

How the data were processed

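The deposited table holds log2 signals of 45101 probe sets on 72 arrays, made by the authors with RMA per the submitters' processing notes (version not given). No array was left out. RMA normally brings arrays to a common distribution, so changes are relative to the other transcripts of a sample, and signals near background or the top of the scale can be compressed; the deposited array medians still differed (4.05 to 4.22). Probe sets were named from the platform annotation (34945 with 1 symbol, 932 with several, 9160 without, 64 controls), and each gene was represented by its probe set with the highest mean.

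A limma fit (version 3.58.1, R 4.3.3) of the 6 group means over all arrays (66 residual degrees of freedom) with moderated variances gave each difference, its SE and 95% interval, with Benjamini-Hochberg adjustment over 12588 genes above 4.14 in at least 7 arrays and a threshold of 0.05. Single probe sets were fitted apart, over all but the controls and without a filter. Correlations used deviations from group means and 100000 permutations, two-sided. The fits were tested on simulated data. All globin genes are named; from each list up to 4 called genes with the smallest p per comparison could be named, beside Gata1, Klf1, Bcl11a, Zbtb7a, Alas2, Alad, Fech and Eif2ak1. The members and lists were chosen with earlier results of these data known. Alternatives covered scaling, filters, arrays in the fit, array weights, replicate number, covariates, permutation and leaving out each array. Added after the data had been seen were the dim-gene covariate, the level bands and the correlations with shared probe sets, array measures and other probe sets of a gene.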

Additional observations from a re-analysis of the deposited data

How the results depend on the processing

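Counts of called globin genes over left-out arrays ran from 1 to 3 in high against low dose after exposure, from 2 to 3 in recovery against exposure in controls, and from 3 to 4 at each dose, with 0 in all other comparisons. A stricter filter (above 4.14 in at least 50% of arrays) kept Hbb-b2 and Hbb-y among 11740 genes and left 1 call, Hbb-y, in each of these 4. In high against low dose after exposure the hybridisation, erythroid and dim-gene covariates each gave 0 calls, the last with Hbb-bh1 at 0.26 (adjusted p = 0.0665), the 18S covariate gave 1, and unadjusted permutation p-values gave 4. In recovery against exposure the erythroid covariate gave 0 in controls and 1 at the low dose, and the dim-gene covariate 1 in controls. Counts for recovery against exposure in the filtered fits can hold Hba-a2 and Hbb-bh1, let in through their exposure arrays. Nothing is read from counts that hold them. Unadjusted permutation p-values gave 1 in high dose against control after exposure (Hbb-bh1), low dose against control after recovery (Hba-a2) and high against low dose after recovery (Hbb-y). Hbb-b2 at the high dose turned from -0.26 to 0.21 with the 18S covariate and to 0.16 with the dim-gene covariate, neither called. The correlation of Hba-a2 with the erythroid mean after recovery was 0.257 after quantile normalization. With replicate number as a block, low dose against control after exposure gave 1 call (Hba-a2, -0.39), and recovery against exposure also called Hba-x at the low dose (-0.18, adjusted p = 0.00722) and Hbb-b2 at the high dose (-0.31, adjusted p = 0.0294). Hba-x at the low dose was called as well with array weights (-0.21, adjusted p = 0.0119) and with only the groups compared (adjusted p = 0.0214), and had a permutation p of 0.00827. With array weights it was also called in controls (-0.30, adjusted p = 0.0184). Of 15 alternatives other than left-out arrays, 8, 11, 7 and 12 gave the same count in high against low dose after exposure and in recovery against exposure in controls, at the low dose and at the high dose. The numbers were not taken to pair the samples: correlations of same-numbered arrays exceeded 0.1 in 3 of 7, 7 of 15 and 4 of 13 pairs, and 1, 3 and 0 arrays correlated best with their own number. Beyond what the alternatives' construction shows, the cause was not tested.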
